A study of Sus scrofa with 6 samples.

Results

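Triacylglycerol, the storage fat of adipocytes, is built on glycerol-3-phosphate in a chain of acylations and is kept in a droplet whose surface carries a coat of proteins. The genes GPAM, AGPAT2, LPIN1, DGAT1, DGAT2, BSCL2, PLIN2 and CIDEC stand for this assembly line and for the droplet surface. All probe sets whose single gene symbol in the platform annotation is one of these 8 were taken, which gave 13 probe sets of 24123 on the array, covering 7 of the genes among 6765 that have a symbol of their own there. CIDEC, a protein that fuses droplets into large ones, has no probe set under its symbol and was not analysed here. The rule takes them by gene symbol and uses no measured value, but the genes were chosen with earlier results of these data known.

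The samples were backfat of male pigs at 175 days of age, all hybrids of Pietrain and Landrace that were weaned at 30 days and fed without restriction. Boars kept their testes, and barrows, their full brothers, had both removed surgically under anesthesia at 7 days. The study drew on 15 such pairs of brothers. RNA of the middle fat layer over the 6th rib was combined in equal amounts from 5 animals per pool, and 3 boar pools and 3 barrow pools were each measured on an Affymetrix expression array. A replicate is a pool of 5 pigs, so the error below is the spread between pools and not between animals. The study compared these groups to learn how castration alters gene expression in subcutaneous fat.

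In fat cells the pathway starts when a glycerol-3-phosphate acyltransferase adds the first fatty acid, and GPAM is such an enzyme, found in mitochondria. AGPAT2 adds the next one to form phosphatidic acid, LPIN1 removes the phosphate to give diacylglycerol, and DGAT1 or DGAT2 adds the last fatty acid. BSCL2, or seipin, is a membrane protein of the endoplasmic reticulum at the sites where droplets form, and PLIN2 is a perilipin that covers droplets. Inherited loss of AGPAT2 or of BSCL2 leaves people almost without body fat. After castration, male pigs are known to lay down more backfat.

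No gene of this assembly line passed the test between barrow and boar fat. Of the 13 probe sets, 10 lay in the upper 60% of the array by mean signal and were tested, and 0 of these 10 reached an adjusted p under 0.05 (limma, adjusted over 14399 probe sets), where 1.16% of all tested probe sets did. Only AGPAT2 had an unadjusted limma p under 0.05 (0.041), which makes 1 of 10 against 12.2% of all tested probe sets. Differences are given as barrow minus boar on the log2(signal + 16) scale. Of the 10, 6 lay above 0, as 46.6% of all tested probe sets did, and 4 below, between -0.42 and 0.43, with a median of 0.05, against a median of -0.01 over all tested probe sets. The groups did not overlap in 2 of the 10, against 18.1% of all tested probe sets. The median size of the difference, 0.11, was close to the 0.12 over all tested probe sets. In pooled tissue, fewer cells of a type and less RNA per cell cannot be told apart.

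**Figure D1:**
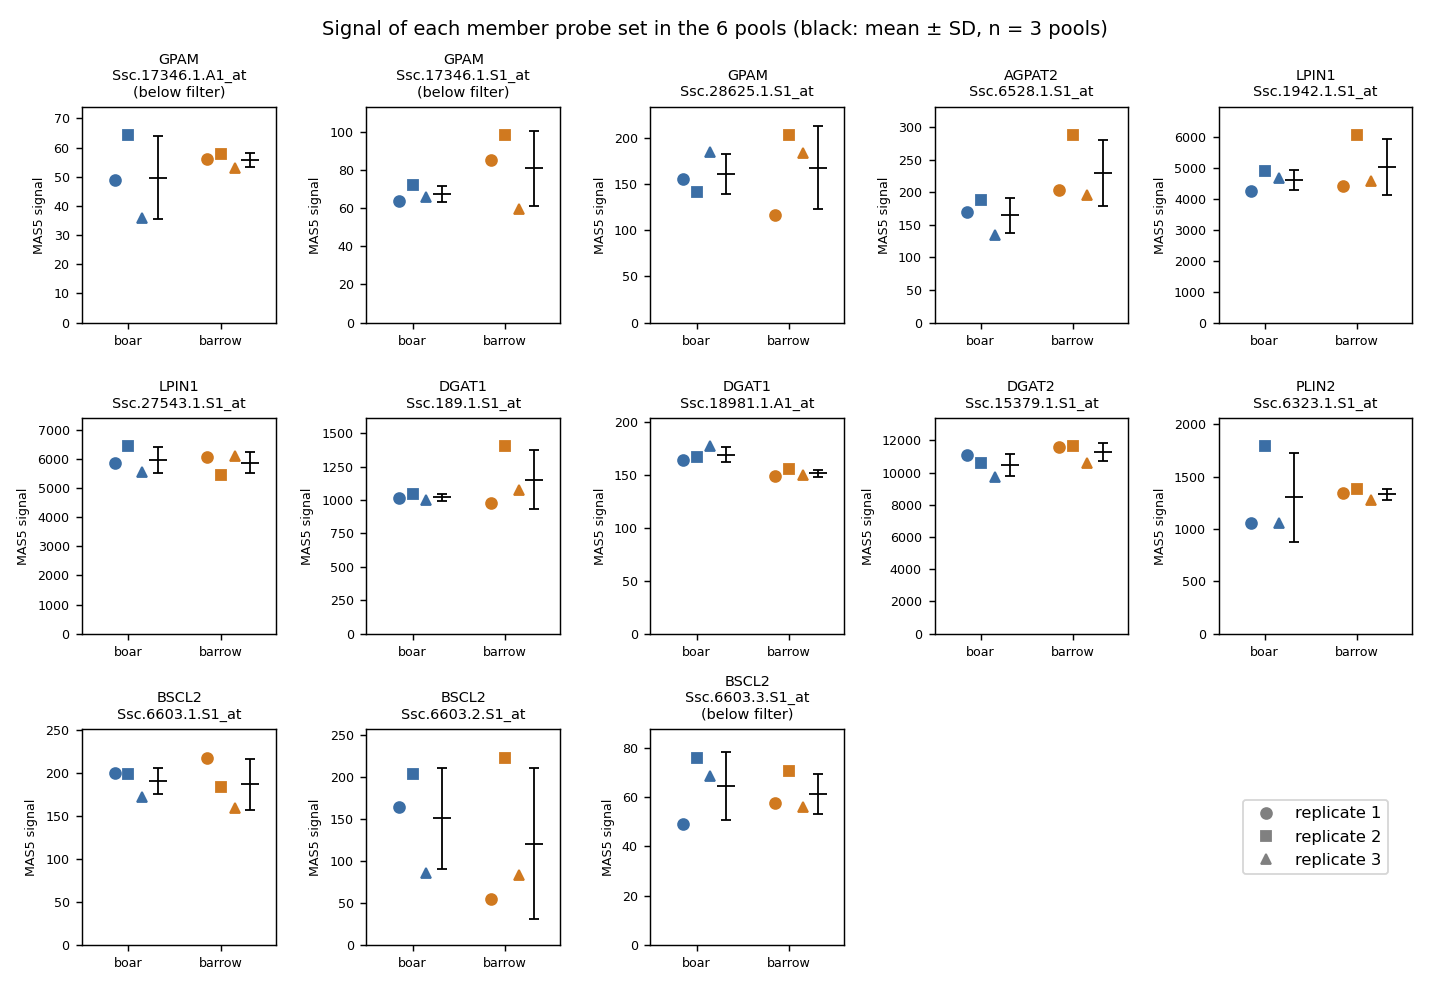
MAS5 signal on a linear axis from 0 for each of the 13 probe sets, with the 3 boar pools in blue, the 3 barrow pools in orange, a marker shape for each replicate number, and the mean ± SD (n = 3) in black. Barrow pools lie wholly above the boar pools for AGPAT2 and wholly below them for Ssc.18981.1.A1_at of DGAT1, and the groups overlap in the other 11 panels.

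The acyltransferase steps are represented by GPAM and AGPAT2. AGPAT2, with probe set Ssc.6528.1.S1_at, had signals of 170, 188 and 135 in boar pools 1 to 3 and of 203, 287 and 196 in barrow pools 1 to 3. Every barrow pool was thus above every boar pool, as in 8.38% of all tested probe sets, with the widest gap to the others in barrow replicate 2. The mean was 164 ± 27.2 in boar pools and 229 ± 50.7 in barrow pools (± SD, n = 3, here and below). The log2 difference was 0.43 and did not pass the test (limma adjusted p = 0.38). As a fold on that scale it was 35.1% higher in barrows, with a 95% interval of 1.41% to 80.0%. That scale adds a constant to each signal and averages logs, so this percentage is not the ratio of the mean signals above. The log2 difference was 0.27 without barrow replicate 2 and 0.31 without boar replicate 3, so the size rests in part on these pools.

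GPAM had 3 probe sets, of which Ssc.28625.1.S1_at was bright enough to be tested. Its signals were 155, 141 and 184 in the boar pools and 117, 202 and 183 in the barrow pools. The highest and the lowest of the 6 were both barrow pools, and the groups overlapped. The log2 difference was 0.03, with a 95% interval of -0.43 to 0.49 (limma adjusted p = 0.97), and it turned to -0.11 without barrow replicate 2. The other probe sets of GPAM fell below the filter on dim signals. Ssc.17346.1.S1_at had 67.4 ± 4.24 in boar pools and 80.9 ± 19.7 in barrow pools, and Ssc.17346.1.A1_at had 49.6 ± 14.2 and 55.6 ± 2.34. Their groups overlapped too, with differences of 0.20 and 0.15 (exact permutation p = 0.4 and 0.6, where 3 against 3 pools cannot give less than 0.1).

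LPIN1, the phosphatase that makes diacylglycerol and that also acts as a regulator of transcription, gave high signals in both of its probe sets. Ssc.1942.1.S1_at had 4252, 4884 and 4676 in the boar pools and 4418, 6042 and 4554 in the barrow pools. Ssc.27543.1.S1_at had 5873, 6432 and 5554 in the boar pools and 6065, 5467 and 6089 in the barrow pools. Barrow replicate 2 was the highest of the 6 pools in the former and the lowest in the latter, so the probe sets of this gene ran opposite ways in that pool. The log2 differences were 0.11 (95% interval -0.14 to 0.36) and -0.02 (-0.19 to 0.15), with limma adjusted p of 0.77 and 0.96. The former changed to -0.035 and the latter to 0.032 without barrow replicate 2. The RefSeq table (Sscrofa11.1) lists 8 transcripts for LPIN1, and which of them each probe set reads was not examined.

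The final step is catalysed by DGAT1 and DGAT2, enzymes of the endoplasmic reticulum that do the same chemistry and belong to different protein families. DGAT2, with probe set Ssc.15379.1.S1_at, had the highest signals of the 13 probe sets, at 11063, 10569 and 9720.4 in the boar pools and 11614, 11622 and 10620.0 in the barrow pools. The barrow pool of each replicate number lay above the boar pool of that number, by 0.07, 0.14 and 0.13 on the log2 scale, but the groups overlapped. The log2 difference was 0.11 with a 95% interval of -0.05 to 0.27 (limma adjusted p = 0.58). This was the narrowest interval among the 10 tested probe sets, and it leaves room for a rise of up to 20.4% and a fall of up to 3.1% in barrows.

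DGAT1 was read by 2 probe sets that pointed opposite ways. Ssc.189.1.S1_at had 1013, 1049 and 998 in the boar pools and 979, 1402 and 1075 in the barrow pools. Ssc.18981.1.A1_at had 164, 167 and 177 in the boar pools and 150, 156 and 150 in the barrow pools. In the brighter probe set a single barrow pool, replicate 2, stood above the rest, whereas in the dimmer one every barrow pool was below every boar pool, as in 9.76% of all tested probe sets. The log2 differences were 0.16 (95% interval -0.12 to 0.43, limma adjusted p = 0.68) and -0.14 (-0.47 to 0.18, limma adjusted p = 0.76). Without barrow replicate 2 the former was 0.01. The pools of a group differed little in the dimmer probe set, with a residual SD of 0.04. The median residual SD over all tested probe sets was 0.15. The model draws each error towards the trend over all of them, and the resulting SE was 0.15.

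Whether the probe sets of a gene changed unequally was examined within arrays, as the log2 difference between a pair of probe sets in each pool. The brighter minus the dimmer probe set of DGAT1 was 2.48 ± 0.08 in boar pools and 2.78 ± 0.24 in barrow pools, with no overlap (exact permutation p = 0.1, the smallest that 3 against 3 can give). Over the 8 such pairs in GPAM, LPIN1, DGAT1 and BSCL2 the adjusted value was 0.8. The other 7 pairs overlapped between the groups, with exact permutation p from 0.7 to 1.

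**Figure D2:**
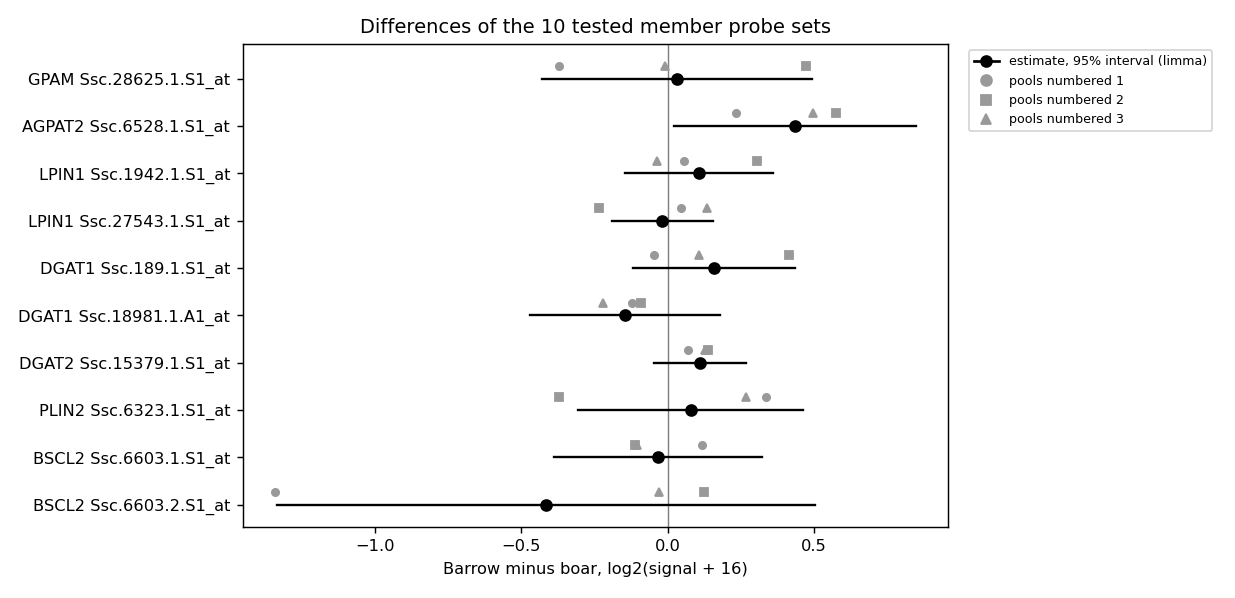
Barrow minus boar difference on the log2(signal + 16) axis for the 10 tested probe sets, with the limma estimate and its 95% interval in black and, in grey above each, the difference between the pools that carry the same replicate number. The interval of AGPAT2 lies above 0, those of the other 9 include 0, and that of Ssc.6603.2.S1_at of BSCL2 is the widest, from -1.34 to 0.50.

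At the sites of droplet formation, BSCL2 had 3 dim probe sets, the brightest near the level of AGPAT2 (mean log2(signal + 16) of 7.67 and 7.70). Ssc.6603.1.S1_at had 200.3, 199.7 and 173 in the boar pools and 218, 184 and 159 in the barrow pools, a difference of -0.03 (95% interval -0.39 to 0.32, limma adjusted p = 0.96). Ssc.6603.2.S1_at had 163, 203 and 85.3 in the boar pools and 54.8, 223 and 83.3 in the barrow pools. It spanned 4.07-fold between its highest and lowest pool, the widest span of the 13, and both pools numbered 2 were high and both numbered 3 were low whatever the group. Its difference of -0.42 (limma adjusted p = 0.76) ran from -0.92 without barrow replicate 2 to -0.04 without barrow replicate 1. Ssc.6603.3.S1_at, below the filter, had 64.5 ± 13.8 in boar pools and 61.4 ± 8.10 in barrow pools. Its difference was -0.05 with overlapping groups (exact permutation p = 0.9). The RefSeq table lists 10 transcripts for BSCL2.

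On the droplet surface, PLIN2 (Ssc.6323.1.S1_at) had 1060, 1788 and 1056 in the boar pools and 1341, 1380.5 and 1276 in the barrow pools. The boar pools held both the highest and the lowest values, and the 3 barrow pools lay close together between them. The means were nearly the same, 1301 ± 422 in boar pools and 1332 ± 52.9 in barrow pools, while the SDs differed. The log2 difference was 0.08 (95% interval -0.31 to 0.46, limma adjusted p = 0.91). It was 0.33 without boar replicate 2, with a limma adjusted p of 0.17. It was -0.046 without boar replicate 1 and -0.048 without boar replicate 3. No test of the difference in spread was run.

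**Figure D3:**
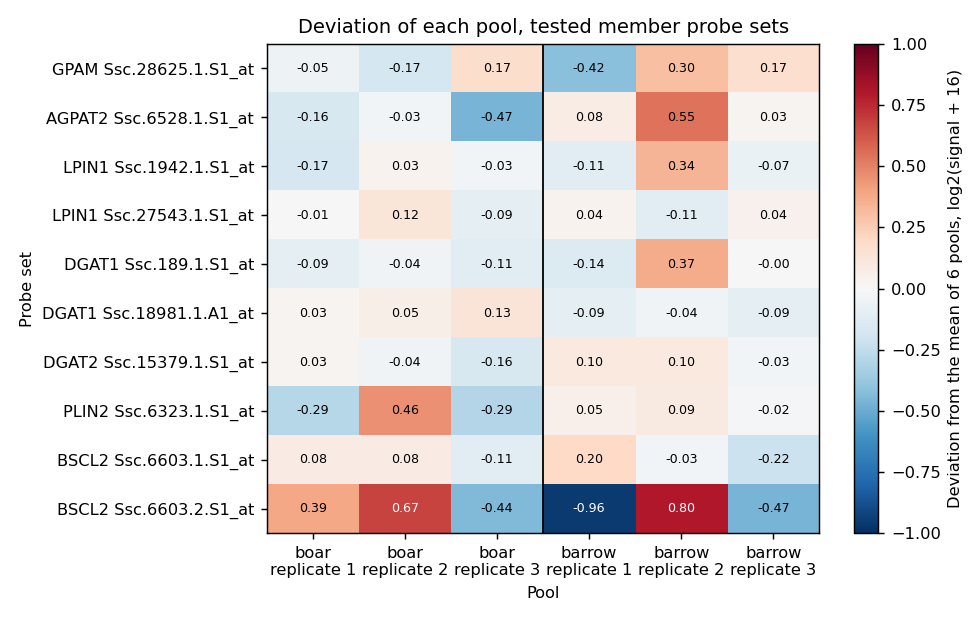
Deviation of each pool from the probe set's mean over the 6 pools, on the log2(signal + 16) scale, as colour and number for the 10 tested probe sets (rows), with boar pools left and barrow pools right of the black line. Barrow replicate 2 holds the highest value in 6 rows, and boar replicate 2 stands out for PLIN2 at 0.46.

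The pools also differed within the groups. Barrow replicate 2 was the highest pool in 6 of the 10 tested probe sets, in GPAM, AGPAT2, LPIN1 (Ssc.1942.1.S1_at), DGAT1 (Ssc.189.1.S1_at), DGAT2 and BSCL2 (Ssc.6603.2.S1_at). Over all tested probe sets this pool was the highest in 19.8% and the lowest in 24.7%, the largest share of the 6 pools in each case. Its median deviation was 0.20 over the 10 probe sets and -0.02 over all tested probe sets. Without it, 5 of the 10 differences lay above 0 and 5 below, with a median of -0.01. The part of this pool in the small shift of the members above 0 was not tested beyond that.

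**Figure D4:**
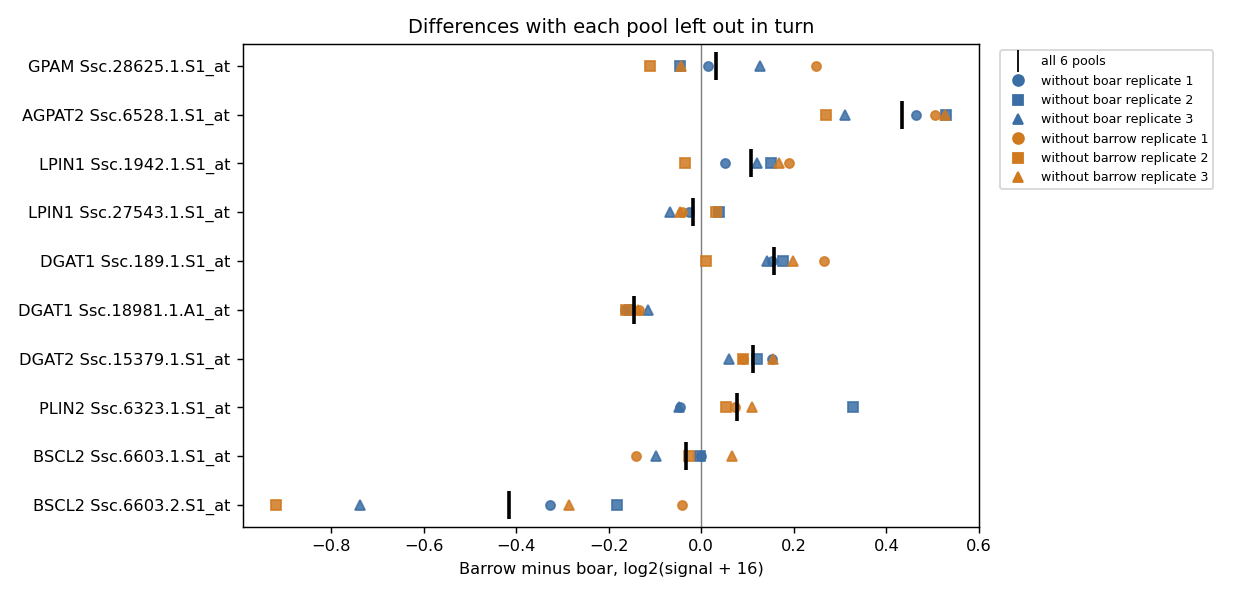
Barrow minus boar difference on the log2(signal + 16) axis for the 10 tested probe sets with all 6 pools (black bar) and with each pool left out in turn (blue for boar pools, orange for barrow pools, a marker shape for each replicate number). AGPAT2 stays between 0.27 and 0.53, DGAT2 between 0.06 and 0.15, and GPAM runs from -0.11 to 0.25 across 0.

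The intervals bound differences in signal on the log2 scale used here, not changes in transcript amount. That scale understates changes of dim probe sets, and signal above background is not established for any probe set. The folds in the rest of this paragraph are on that scale. For 8 of the 10 tested probe sets the 95% interval lay inside a 1.5-fold change in either direction, which was so for 76.9% of all tested probe sets. The exceptions were AGPAT2 and Ssc.6603.2.S1_at of BSCL2, and the latter was also the only one whose interval reached past a 2-fold change. A p that misses the threshold does not show that the groups were equal. With the replicate number as a block 0 of 10 passed as well, where 2.35% of all tested probe sets did. The smallest limma adjusted p of the 10 was then 0.21, for AGPAT2.

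Other genes of the pathway were described from 3 lists of enzymes, precursor suppliers and droplet proteins. Outside the members the lists hold 54 genes, of which 36 were on the array under these symbols and 29 were tested, each by its brightest probe set. Of these 29, 1 gene fell and 0 rose, where 1.51% of all 5356 tested genes passed in either direction. The median difference of the 29 was 0.04, against -0.01 over all tested genes, and 7 of 29 did not overlap between the groups, where 19.6% of all tested genes did not.

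The gene that fell was PLPP1, a membrane phosphatase that removes the phosphate from phosphatidic acid and related lipids. Its signals were 4762, 4508 and 4446 in the boar pools and 3349, 3516 and 3370 in the barrow pools, with a wide gap between the groups and little spread within them. It fell by 0.42 on the log2 scale (95% interval -0.57 to -0.27, limma adjusted p = 0.016), from 4572 ± 168 to 3412 ± 91.2. The call was lost without boar replicate 1, boar replicate 3, barrow replicate 1 or barrow replicate 3 (limma adjusted p = 0.13, 0.077, 0.086 and 0.077) and without an intensity trend (0.14). The difference stayed between -0.44 and -0.39 with any single pool left out. Of the 9 endothelial markers on the array 1 fell, TEK, where 1.51% of all tested genes passed in either direction. None of the 9 log2 differences lay above 0, where 48.5% of all tested genes did, with a median of -0.29, and CDH5 was at -0.00092. Their summed signal was 16567 to 17181 in boars and 14555 to 15284 in barrows, and none was at 0. Their part in the value of PLPP1 was not tested.

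Among the other enzymes of glycerolipid synthesis, 11 were tested, PLPP1 included, with a median of 0.04. GPAT4, a glycerol-3-phosphate acyltransferase of the endoplasmic reticulum, had 1564 ± 61.8 in boar pools and 1851 ± 101 in barrow pools, with no overlap and a difference of 0.24 (95% interval 0.06 to 0.42, limma adjusted p = 0.24). AGPAT3, which acylates lysophospholipids, had -0.26 (limma adjusted p = 0.36), and CDS2, which draws phosphatidic acid into phosphatidylinositol synthesis, had 0.18 (limma adjusted p = 0.41). Neither overlapped between the groups in its brightest probe set, and they lay on opposite sides of 0. The other tested probe set of CDS2 overlapped and had 0.014 (limma adjusted p = 0.98), and that of AGPAT3 had -0.22. LPIN2, a paralogue of LPIN1, was too dim to be tested, and is named here after its values were seen.

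Of the genes that supply glycerol-3-phosphate and activated fatty acids, 9 were tested, 0 passed and the median was 0.00. Glycerol kinase, GK, had 665 ± 110 in boar pools and 860.2 ± 67.9 in barrow pools, with every barrow pool above every boar pool and a difference of 0.37 (limma adjusted p = 0.25). PCK1, the key enzyme of glyceroneogenesis, had signals of 3668, 4066 and 3465 in the boar pools and 2486, 3745 and 2777 in the barrow pools. Barrow replicate 2 lay among the boar pools while the other barrow pools lay below them, and the difference was -0.33 (limma adjusted p = 0.34). Without barrow replicate 2 it was -0.50 (limma adjusted p = 0.022), so that single pool set the call. ACSL1 and ACSL4, which activate fatty acids, had 0.06 and -0.07 (limma adjusted p = 0.73 and 0.76), each with no overlap between the groups.

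Of the other droplet proteins, 10 were tested, 0 passed, all 10 overlapped between the groups, and the differences lay between -0.11 and 0.12 with a median of 0.06. The perilipin PLIN3 had 0.12 (limma adjusted p = 0.81), and it was -0.0033 without boar replicate 3. RAB18, a small GTPase of droplets, had 0.06, UBXN4 0.11 (-0.04 in its other probe set) and VPS13C, a lipid transfer protein, 0.12 (limma adjusted p = 0.80, 0.60 and 0.82). CIDEA, a relative of CIDEC that also sits on droplets and was named after its values were seen, had 3470 ± 329 in boar pools and 3503 ± 577 in barrow pools. Its difference was 0.01 (95% interval -0.25 to 0.26, limma adjusted p = 0.99). It turned to -0.014 under quantile normalization.

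**Figure D5:**
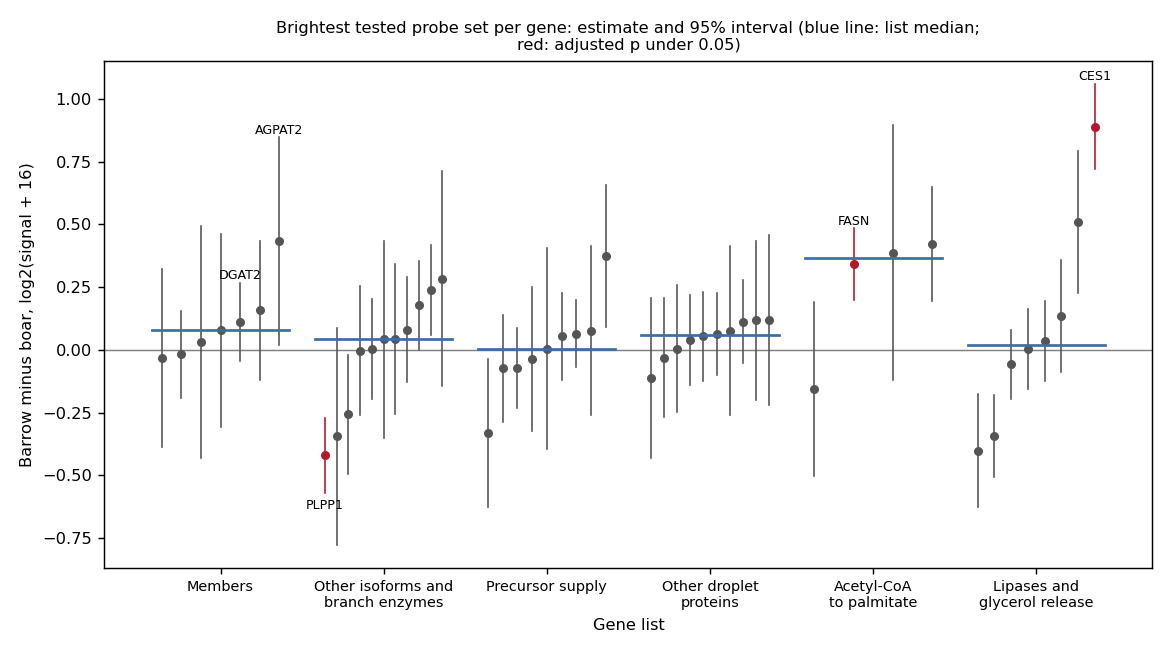
Barrow minus boar difference on the log2(signal + 16) axis, with its 95% interval, for the brightest tested probe set of each gene in 6 lists, where blue lines are list medians and red marks an adjusted p under 0.05. The members (median 0.08 over 7 genes) hold no red point, and red points are PLPP1, FASN and CES1.

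The neighbouring steps of fat metabolism are set beside the members by counts and medians, and no test of the difference between lists was run. By the brightest probe set per gene, the 7 members had a median of 0.08 and 0 passed. Of the 4 tested genes listed for acetyl-CoA supply and fatty acid synthesis, 1 rose, and the median was 0.36. Over all tested genes 1.51% passed in either direction. The gene that rose was fatty acid synthase FASN, with 0.34 (95% interval 0.20 to 0.48, limma adjusted p = 0.035). The other tested probe sets of FASN had 0.86 and 0.95 (limma adjusted p = 0.097 and 0.10, and 0.0025 and 0.0073 once pools were blocked by number). Across the alternatives the adjusted p of the brightest reached 0.23 in limma. ACSS2, which makes acetyl-CoA from acetate, had 0.42 (limma adjusted p = 0.092 without and 0.020 with a replicate block).

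Of 8 tested genes of lipases and glycerol release, 1 rose, where 1.51% of all tested genes passed in either direction. The median was 0.02. The gene that rose was the carboxylesterase CES1, with 0.89 (95% interval 0.72 to 1.06, limma adjusted p = 5.9e-04). AQP3, a channel for glycerol, had -0.34 (limma adjusted p = 0.061 without and 0.031 with a replicate block). With that block 3 of the 8 passed, where 166 of all 5356 tested genes did. CES1 rose, while AQP3 and ABHD5 fell. ABHD5, named after its values were seen, had -0.40 (limma adjusted p = 0.10 without and 0.029 with the block).

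The tissue carried the markers of fat. Of 9 adipocyte markers on the array outside the members 8 were tested and 1 rose, where 1.51% of all tested genes passed in either direction. It was LEP, with 0.58 (limma adjusted p = 0.021) and 0.45 in its other tested probe set. The summed signal of the 9 markers was 76511 to 82925 in boars and 72450.1 to 80752 in barrows. All 6 skeletal muscle markers lay below the filter on dim signals, summing to 119.9 to 207 in any pool. Macrophage markers summed to 8811 to 11140.0 in boars and 8303 to 9616 in barrows, and none was at 0. Of these 9, 8 were lower in barrows, where 48.5% of all tested genes lay above 0. The other, CD163, had 0.15 in its brightest probe set and -0.70 in another. Of the 8 tested 0 passed, where 1.51% of all tested genes did. With a replicate block 1 passed (C1QA, limma adjusted p = 0.035), where 166 of all 5356 tested genes did. Skin and gland epithelium markers summed to 257 to 369 in boars and 539 to 1929 in barrows, where the highest was barrow replicate 2. The gap between the sums came from the gland gene PIP, which rose (limma adjusted p = 0.018). Its signals were 13.7, 3.83 and 29.9 in the boar pools and 207, 1508 and 219 in the barrow pools. Without PIP the sums were 253 to 339 and 320.2 to 421, which overlap. EPCAM and CDH1, below the filter and named after their values were seen, also had every barrow pool above every boar pool. Among tested probe sets this was so for 8.38%, and no such share was computed below the filter. The differences of EPCAM and CDH1 were 1.06 and 0.59 (exact permutation p = 0.1 for each), while KRT8 and KRT18 overlapped between the groups. The part of these markers in the members' values was not tested. The arrays had median signals of 162 to 173, and log2 ratios of 3' to 5' control probe sets for actin and GAPDH overlapped between the groups (exact permutation p from 0.3 to 0.8 over 4 control pairs).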

How the data were processed

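The deposited values are MAS5 signal intensities on a linear scale, as the submitters' processing notes and the values themselves show, with a single value for every probe set on every array. The MAS5 version and settings were not given in the sources used here. Detection calls were not used, so signal above background is not established for any probe set. The 2% trimmed mean was near 500.1 on each array, as a global scaling by the authors would give. The number of arrays, 6, limits the precision.

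The 124 control probe sets were left out of these intensities. Probe sets among the top 60% in mean log2(signal + 16) (14399, mean signal from about 92.7) were compared with limma 3.58.1 (R 4.3.3, lmFit, then eBayes with a trend in intensity), 2-sided, at a Benjamini-Hochberg threshold of 0.05. Folds on this scale understate changes of dim probe sets. Each member probe set was kept separate, and other genes were represented by their brightest tested probe set. A single gene symbol was given for 10099 of the 24123 probe sets, several for 198 and none for 13826. All 7 member genes were found by gene identifier in the RefSeq table, with 0 symbols changed. Coordinates are left out because the array names no build. Beside the members, 12 gene lists were used, 5 of pathways and 7 of cell type markers. Fibroblast markers had a median of 0.07 over 6 genes and lymphocyte markers -0.24 over 3. Genes named outside the members were those past the threshold and up to 4 per pathway list with the smallest unadjusted p, or up to 2 in the fatty acid synthesis and lipase lists. The members and lists were chosen with earlier results of these data known. The fit was tested on simulated data. At a log2 size of 0.5 it called 8 of 67 changed probe sets. At a size of 1 it called 50 of 67, and at a size of 2 it called 62 of 66.

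Both groups use replicate numbers 1 to 3. Within-group residuals of equally numbered boar and barrow pools had correlations of 0.12, 0.17 and 0.26, while unequal numbers gave -0.19 to -0.01. Since all 3 exceed 0.1, the replicate number was used as a block in an alternative fit, although the labels do not say what a number shares. The main comparison has no block, so its intervals and adjusted p do not use this pairing.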

Additional observations from a re-analysis of the deposited data

How the results depend on the processing

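Under 14 alternatives, 0 of the tested member probe sets passed in any. Of 135 differences so obtained 123 kept their direction and 12 turned, all in 5 probe sets whose reported differences lay between -0.03 and 0.11. Changing the filter, dropping the intensity trend or adding the replicate block leaves a difference unchanged by design. Those values could not turn, so the count overstates how far directions held. With array weights GPAM was -0.12, LPIN1 (Ssc.27543.1.S1_at) 0.020, BSCL2 (Ssc.6603.1.S1_at) 0.0074 and CIDEA -0.11, and with quantile normalization CIDEA was -0.014. With single pools left out the ranges were -0.11 to 0.25 for GPAM, -0.035 to 0.19 and -0.067 to 0.039 for LPIN1 (Ssc.1942.1.S1_at and Ssc.27543.1.S1_at), -0.048 to 0.33 for PLIN2, -0.14 to 0.067 for BSCL2 (Ssc.6603.1.S1_at), -0.0033 to 0.24 for PLIN3 and -0.12 to 0.097 for CIDEA. AGPAT2, DGAT1, DGAT2 and Ssc.6603.2.S1_at of BSCL2 did not turn.

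Over all tested probe sets 167 passed, and 96 without a filter, 32 without an intensity trend, 425 with array weights, 338 with the replicate block and 27 to 290 with single pools left out (boar replicate 1 left out gave 27 and boar replicate 3 gave 31, while barrow replicates 1, 3 and 2 left out gave 52, 65 and 290). Of the other pathway genes 1 passed, and 0 without an intensity trend and 0 to 2 with single pools left out. The cause was not tested. The block changed no call among the members and the other pathway genes. Without a filter, 13 member probe sets were tested and 0 passed. Dim probe sets such as those of BSCL2, GPAM and AGPAT2 limit what can be said of these genes.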
